A study of Mus musculus with 6 samples.

Results

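The interleukin-6 (IL-6) family cytokines and their receptors were followed in mouse liver as 10 genes taken by name: the cytokine genes Il6, Il11, Lif, Osm and Clcf1, and the receptor genes Il6st, Il6ra, Osmr, Lifr and Il11ra1. These were 10 of the 15454 rows of the count table and of the 21948 rows of the table of length-scaled values, and all 10 were among the 12411 genes tested. Liver tissue, of a lobe that the labels do not name, was taken from male C57BL/6 mice, aged 8 to 10 weeks, in which 75% of the organ had been through warm ischemia and reperfusion (I/R). The I/R group (n = 3) had been given vehicle. The I/R+Rk2 group (n = 3) had been given ginsenoside Rk2, a saponin of processed ginseng, at the higher dose of the study. In both cases the injections were intraperitoneal, 2 days ahead of the operation and again as reperfusion began. Both groups therefore carried the I/R injury, sham-operated livers were not analysed here, and each value below compares injured livers with and without Rk2.

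Cytokines of the IL-6 family signal through gp130, the shared receptor chain encoded by Il6st. A ligand-specific chain (Il6ra for IL-6, Il11ra1 for IL-11) or a second signaling chain (Lifr for LIF, Osmr for oncostatin M) completes the complex, after which JAK kinases phosphorylate STAT3. In liver, IL-6 type signaling is best known for driving the acute-phase response of hepatocytes and for its part in regeneration, whereas oncostatin M and LIF are made largely by myeloid and stromal cells.

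The libraries held between 16809613 and 35618074 counts, and levels are given as counts per 1000000 (CPM) of the library size after scaling by the trimmed mean of M values (TMM). The hepatocyte markers were abundant in all 6 libraries, as the tissue label says, with a summed level of 74718 to 85329 CPM in I/R and 110780 to 134566 CPM in I/R+Rk2. Neutrophil markers summed to 598 to 728 CPM in I/R and 111 to 255 CPM in I/R+Rk2, and monocyte and macrophage markers to 356 to 437 CPM and 63.1 to 84.6 CPM. Of the 12 tested genes in each of these leukocyte lists, 10 and 11 were called lower in I/R+Rk2 (adjusted p below 0.05 in the edgeR test described below). Of all genes tested, 23.7% were called lower. None of the listed genes found in the table was at 0 in all libraries, and the part of these cells in the results below was not tested. In bulk tissue, fewer cells of a type and less RNA per cell cannot be told apart.

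Rk2-treated livers held far less cytokine message, and the receptors did not move together. Of the 10 genes, 6 were lower in I/R+Rk2 with an adjusted p below 0.05 in edgeR's quasi-likelihood test with Benjamini-Hochberg adjustment, where 23.7% of all genes tested were called lower. They were the 5 cytokines and Osmr, and all 6 had also fallen by more than 2-fold, a limit passed in that direction by 11.4% of genes. Il11 had entered the test through its I/R counts alone (below). Il11ra1 was the 1 gene called higher, where 20.3% of genes were. The libraries of the groups did not overlap for the same 6 genes on the lower side and for Il11ra1 on the higher side, a pattern that 30.3% and 27.1% of all genes showed in those directions. The median log2 fold change (I/R+Rk2 over I/R) was -3.04 for the 5 cytokines and -0.03 for the 5 receptors, beside -0.01 for all genes tested, and the cytokine median is the same with Il11 set at its bound (below).

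**Figure D1:**
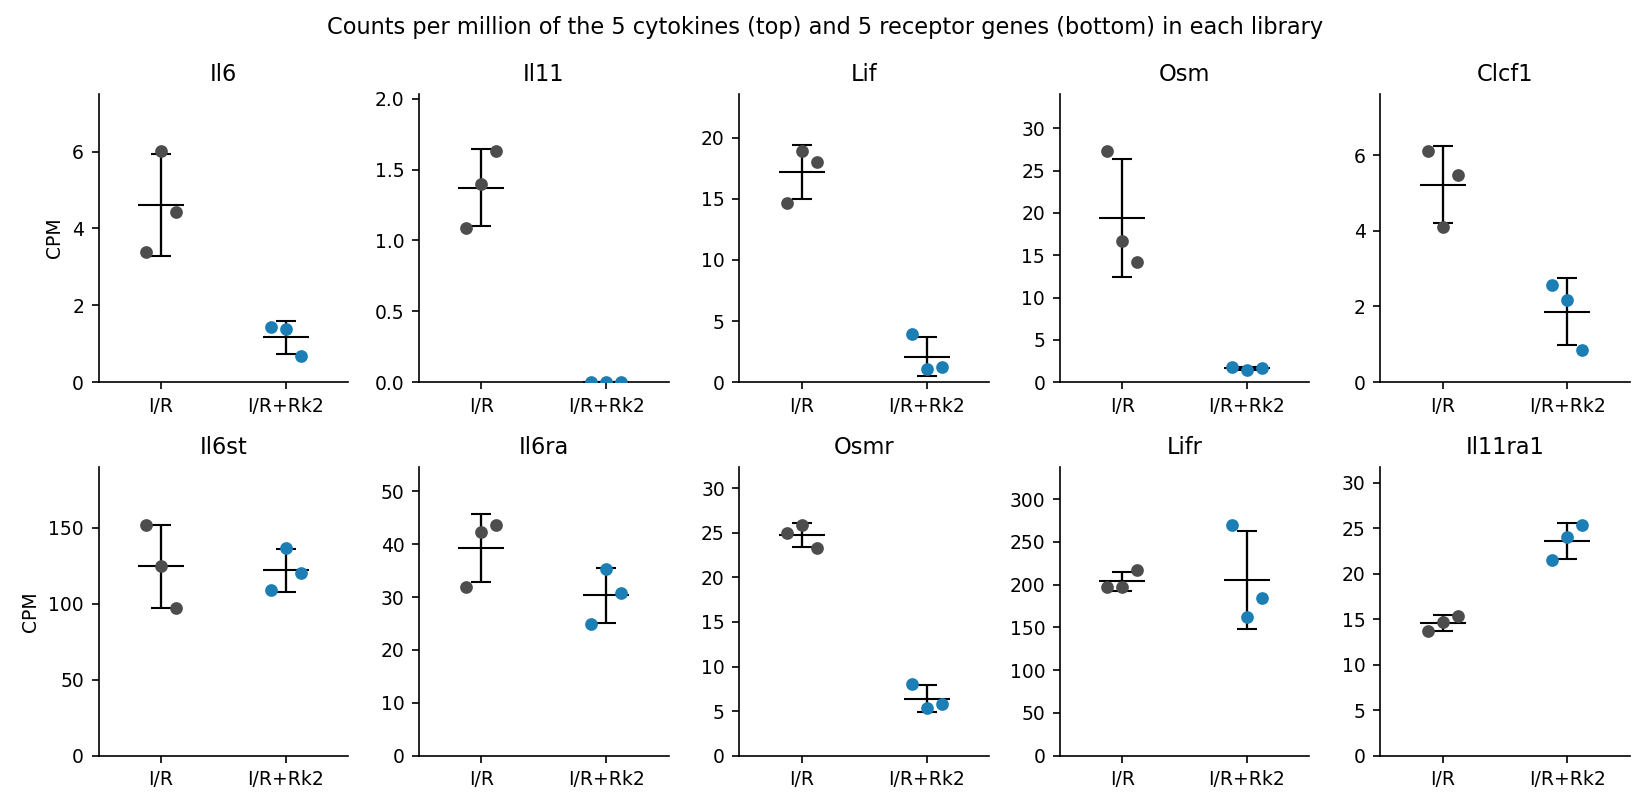
CPM of each gene in the 3 I/R (grey) and 3 I/R+Rk2 (blue) libraries, with the group mean (long bar) and SD (capped line); each panel has its own vertical axis from 0. All 5 cytokines and Osmr lie lower in every I/R+Rk2 library, Il11ra1 lies higher, and Il6st, Il6ra and Lifr overlap.

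Osm, which encodes oncostatin M, a cytokine released by neutrophils and macrophages, had the highest level per unit of length (FPKM, below) of the 5 cytokines in each I/R liver. In CPM it stood at 27.3, 16.7 and 14.2 CPM in the 3 I/R livers and at 1.81, 1.39 and 1.66 CPM in the 3 I/R+Rk2 livers. The treated livers were close to each other, and the lowest I/R liver was far above the highest of them. The mean fell from 19.4 ± 6.95 to 1.62 ± 0.211 CPM (SD, n = 3), a log2 fold change of -3.59 (SE 0.29, 95% interval -4.27 to -2.90, edgeR adjusted p = 0.000366) or 12.0-fold.

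Lif, the neighbour of Osm on chromosome 11, encodes leukemia inhibitory factor and fell next most among the cytokines that kept some counts. Its level was 14.7, 18.9 and 18.0 CPM in I/R and 3.95, 1.07 and 1.23 CPM in I/R+Rk2. The I/R livers were tight, whereas the first treated liver held more Lif than the other two. The log2 fold change was -3.04 (SE 0.46, 95% interval -4.13 to -1.96, edgeR adjusted p = 0.00262), or 8.25-fold, and it became -3.93 (edgeR adjusted p = 0.00026) when that liver was left out. Over all settings tried, its adjusted p lay between 1.81e-10 and 0.0117. In the annotation, Osm (chr11:4236420-4241026) and Lif (chr11:4257557-4272514) lie on the plus strand of GRCm38 with 16530 bp and no gene between them.

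Il6, the founding member of the family and a pyrogenic and hepatocyte-stimulating cytokine, stood at 3.39, 6.01 and 4.43 CPM in I/R and at 1.43, 1.39 and 0.675 CPM in I/R+Rk2. These rested on 65 to 154 counts and on 11 to 47 counts per library. Every treated liver was below every untreated one. The log2 fold change was -1.95 (SE 0.34, 95% interval -2.74 to -1.15, edgeR adjusted p = 0.00421), or 3.85-fold.

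Clcf1, which encodes cardiotrophin-like cytokine factor 1, showed the smallest fall among the cytokines. Its level was 6.10, 4.10 and 5.46 CPM in I/R and 2.56, 2.16 and 0.86 CPM in I/R+Rk2. The groups did not overlap, but the treated livers were unequal. The log2 fold change was -1.45 (SE 0.37, 95% interval -2.31 to -0.59, edgeR adjusted p = 0.017). The call was lost without I/R liver 1 (-1.32, edgeR adjusted p = 0.057) and without I/R liver 3 (-1.42, edgeR adjusted p = 0.0517), and over all settings tried the adjusted p lay between 0.00147 and 0.057. Clcf1 also shares exon sequence on the same strand with AC109138.7, so some of its counts could belong to that gene.

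Il11, which encodes the stromal cytokine IL-11, was rare, with 21, 36 and 41 counts over the untreated livers, and was listed at 0 in every treated one. At 1.09, 1.40 and 1.63 CPM the level was low even in I/R. Against a floor of 3 counts in each treated library, Il11 was at least 10.4-fold lower in I/R+Rk2 (edgeR adjusted p = 0.00132). Il11 had passed the count filter through its I/R counts alone, so this call is not independent of its level in I/R. The fitted fold change of such a gene depends on the prior count and is not given. Both deposited tables hold estimated transcript abundances, so a listed 0 is the absence of an estimated transcript, and the floor covers counting error only.

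RefSeq start sites (GRCm38.p6) were at hand for 8 of the 10 genes (not Osm or Clcf1), and the windows from 250 bases before to 50 bases after each start were searched on both strands for NF-kB sites (the usual 10-base consensus), STAT sites (TTCNNNGAA), AP-1 sites (TGANTCA), CRE sites (TGACGTCA) and C/EBP sites (TTGCGCAA or TTNNGNAAT). Of 32544 such windows over all genes, 8.49% held the NF-kB form, 8.33% the STAT form, 7.79% the AP-1 form, 1.80% the CRE form and 11.5% a C/EBP form. The windows below are shown because they are those of called genes in which a form was found, and capitals mark the matches.
Il6, chr5:30012864-30013163, plus strand: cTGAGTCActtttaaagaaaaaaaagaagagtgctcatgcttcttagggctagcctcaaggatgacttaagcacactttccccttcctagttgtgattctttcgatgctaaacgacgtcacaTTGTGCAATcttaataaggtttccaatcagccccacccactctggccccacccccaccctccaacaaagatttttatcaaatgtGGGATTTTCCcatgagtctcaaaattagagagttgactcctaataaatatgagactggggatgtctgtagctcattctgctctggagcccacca
Il11, chr7:4778092-4778391, minus strand: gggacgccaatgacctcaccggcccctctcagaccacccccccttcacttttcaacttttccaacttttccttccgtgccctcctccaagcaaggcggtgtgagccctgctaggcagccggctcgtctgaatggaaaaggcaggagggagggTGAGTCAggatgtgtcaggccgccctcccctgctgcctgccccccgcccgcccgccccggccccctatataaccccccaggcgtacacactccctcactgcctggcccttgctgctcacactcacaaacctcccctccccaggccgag
Lif, chr11:4257318-4257617, plus strand: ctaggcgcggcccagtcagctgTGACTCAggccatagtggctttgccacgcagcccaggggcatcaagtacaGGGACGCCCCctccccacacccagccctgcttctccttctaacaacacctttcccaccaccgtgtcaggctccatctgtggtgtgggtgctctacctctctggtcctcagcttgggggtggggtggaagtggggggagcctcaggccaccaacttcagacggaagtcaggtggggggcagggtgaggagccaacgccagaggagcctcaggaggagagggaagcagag
Osmr, chr15:6874264-6874563, minus strand: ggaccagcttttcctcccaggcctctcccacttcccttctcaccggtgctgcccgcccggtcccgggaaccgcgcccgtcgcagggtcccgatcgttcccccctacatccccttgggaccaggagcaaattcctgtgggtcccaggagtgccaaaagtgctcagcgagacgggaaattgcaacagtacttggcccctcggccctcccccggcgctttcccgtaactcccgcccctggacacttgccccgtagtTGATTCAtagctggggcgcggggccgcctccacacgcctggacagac
In the Il6 window the AP-1 form lay 249 to 243 bases before the start, a C/EBP form 128 to 120 bases before it and the NF-kB form 44 to 35 bases before it. The Lif window held the AP-1 form 228 to 222 bases and the NF-kB form 178 to 169 bases before the start. The window at the second Il11 start held AP-1 98 to 92 bases before it, and in Osmr the AP-1 form covered bases 4 to 10 of the transcript. No match overlapped another. None of these forms was present in the windows of Il6ra, Il6st, Lifr or Il11ra1, nor at the first Il11 start, and no STAT or CRE form was present in any member's window. A match is a stretch of letters and was not tested as a binding site. Whether matches were commoner in the genes that fell was not tested either.

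**Figure D2:**
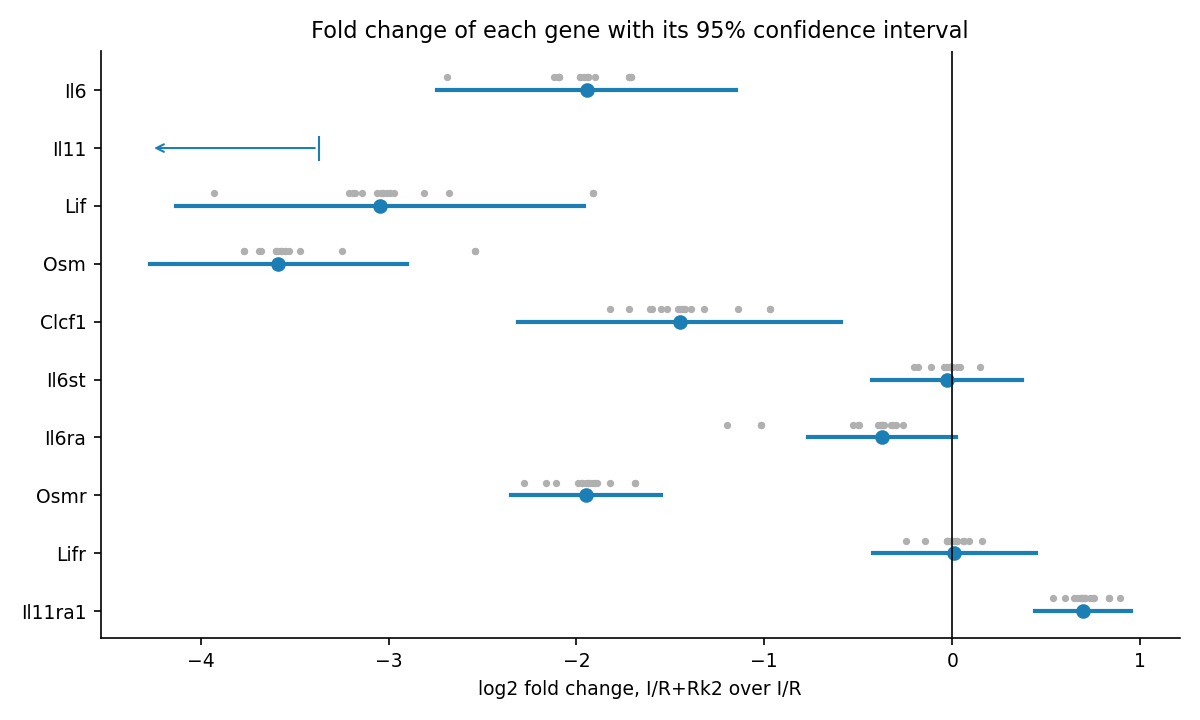
Log2 fold change (I/R+Rk2 over I/R) of each gene from the edgeR fit (blue point) with its 95% interval (blue line); small grey points are the values under other settings. For Il11 the mark and arrow show the bound of at least 10.4-fold lower; the other 4 cytokines and Osmr lie below 0 throughout, Il11ra1 above 0, and the intervals of Il6st, Il6ra and Lifr reach 0.

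Among the receptors, Il6st was abundant and showed no resolved difference between the groups. The gp130 transcript stood at 152, 125 and 97.2 CPM in I/R and at 109, 137 and 120 CPM in I/R+Rk2. The I/R livers were the more spread and covered the treated ones entirely. The log2 fold change was -0.03 (SE 0.17, edgeR adjusted p = 0.91), with a 95% interval of -0.43 to 0.37, and its sign changed with the scaling. Lifr, the chain that pairs with gp130 for LIF, was likewise unresolved at 197, 197 and 217 CPM in I/R and 270, 162 and 184 CPM in I/R+Rk2. The treated livers lay on both sides of the I/R livers, and the log2 fold change was 0.01 (SE 0.19, edgeR adjusted p = 0.966), with a 95% interval of -0.42 to 0.45 and a sign that also changed with the scaling.

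Osmr, the oncostatin M receptor chain that is known to be induced by its own ligand, differed from these 2 chains. It stood at 25, 25.9 and 23.3 CPM in I/R and at 8.07, 5.30 and 5.83 CPM in I/R+Rk2. Both groups were tight and well apart. The log2 fold change was -1.95 (SE 0.17, 95% interval -2.35 to -1.55, edgeR adjusted p = 0.000458), or 3.86-fold. Osmr and Lifr lie on chromosome 15 of GRCm38, at chr15:6813577-6874969 on the minus strand and chr15:7090614-7197489 on the plus strand.

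Osmr was also lower relative to Lifr and Il6st within each library, a measure in which scaling between libraries has no part. In FPKM (fragments per kilobase per 1000000 fragments), which scales for length and allows genes to be compared, the ratio of Osmr to Lifr was 0.139, 0.182 and 0.170 in I/R and 0.0374, 0.0275 and 0.0317 in I/R+Rk2. The ratio of Osmr to Il6st was 0.260, 0.359 and 0.488 in I/R and 0.0984, 0.0538 and 0.0619 in I/R+Rk2. Neither of these overlapped between the groups. The mean log2 differences were -2.35 and -2.37, each with p = 0.1 in a two-sided exact permutation test, which is the smallest p that 3 against 3 libraries can give. The FPKM ratios also carry the transcript length given to each gene in each library (below). From counts in place of FPKM, the differences were smaller, at -1.95 and -1.96, and were not tested. The third ratio compared, Il6ra to Il6st, was 0.299, 0.527 and 0.662 in I/R and 0.150, 0.324 and 0.168 in I/R+Rk2. It overlapped, with a mean log2 difference of -1.22 (two-sided exact permutation p = 0.2), and adjustment over the 3 ratios can only raise these p-values.

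Il11ra1, the ligand-binding chain for IL-11, was the receptor that rose. It stood at 13.7, 14.7 and 15.4 CPM in I/R and at 21.5, 24.0 and 25.4 CPM in I/R+Rk2, with a log2 fold change of 0.70 (SE 0.11, 95% interval 0.44 to 0.95, edgeR adjusted p = 0.00284), or 1.62-fold. The direction was opposite to that of its ligand gene. The value is uncertain as to source, because mouse carries near-identical copies whose reads can be split among them: Gm13305 matched an Il11ra1 transcript at 98.9% of 1953 aligned bases, and Il11ra2 at 99.0% of 1299. Gm13305 had 84, 119 and 107 counts in I/R and 155, 255 and 114 in I/R+Rk2, whereas Il11ra2 had 94 counts in the second I/R liver and 0 in the other 5 libraries. With the 3 genes summed, the level was 18.0, 23.0 and 19.7 CPM in I/R and 28.0, 31.6 and 32.4 CPM in I/R+Rk2, still without overlap, and the log2 fold change was 0.60 (SE 0.12, edgeR adjusted p = 0.00715). Il11ra1 also overlaps an exon of Ccl27a on the opposite strand. In every library the transcript length behind its estimate was shorter than its annotated coding transcripts (below).

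Il6ra, the chain that binds IL-6, gave different answers by count and by FPKM. In counts it stood at 32.0, 42.4 and 43.7 CPM in I/R and at 24.9, 35.3 and 30.8 CPM in I/R+Rk2, so that the groups overlapped. The log2 fold change was -0.38 (SE 0.17, 95% interval -0.77 to 0.02) and did not pass (edgeR adjusted p = 0.108). In FPKM it stood at 6.78, 8.78 and 8.91 in I/R and at 2.64, 5.12 and 3.07 in I/R+Rk2, without overlap, a difference of -1.02 on the log2(FPKM + 1) scale (limma adjusted p = 0.0208). Over all settings tried its adjusted p lay between 0.00648 and 0.265.

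The gap between the 2 measures lay largely in the transcript length that each library had been given. Scaling also had a part: with library size alone, the log2 fold change in counts was -0.529 (edgeR adjusted p = 0.0233). Count divided by FPKM, scaled on 596 genes with a single transcript, returns the mean transcript length behind a gene's estimate, and the middle 90% of those genes fell within 0.987 to 1.01 of their annotated length. For Il6ra this length was 5040, 4633 and 4662 bp in I/R and 8649, 6120 and 8643 bp in I/R+Rk2. All 3 treated livers had the longer value, by 0.69 on the log2 scale, and only 1.09% of 11246 genes shifted further in either direction. Il6ra (chr3:89864059-89913196, minus strand) has 2 annotated coding transcripts, of 3343 bp and 8639 bp, and the longer runs 5265 bp further at the 3′ end. Treated livers 1 and 3 thus sat at the length of the long transcript.

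If these 2 transcripts hold all of the Il6ra estimate, the long one stood at 2.17, 2.14 and 2.22 FPKM in I/R and at 2.64, 2.68 and 3.07 FPKM in I/R+Rk2. The short one stood at 4.61, 6.64 and 6.69 FPKM in I/R and at 0, 2.43 and 0 FPKM in I/R+Rk2. The difference in FPKM therefore fell on the short transcript, while the long one was slightly higher in the treated livers. The split comes from the estimation of transcripts in the deposited files and not from counts of reads at the 3′ end. Gm42809 overlaps Il6ra on the opposite strand, and reads of the pair cannot be told apart unless strand was used in counting.

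**Figure D3:**
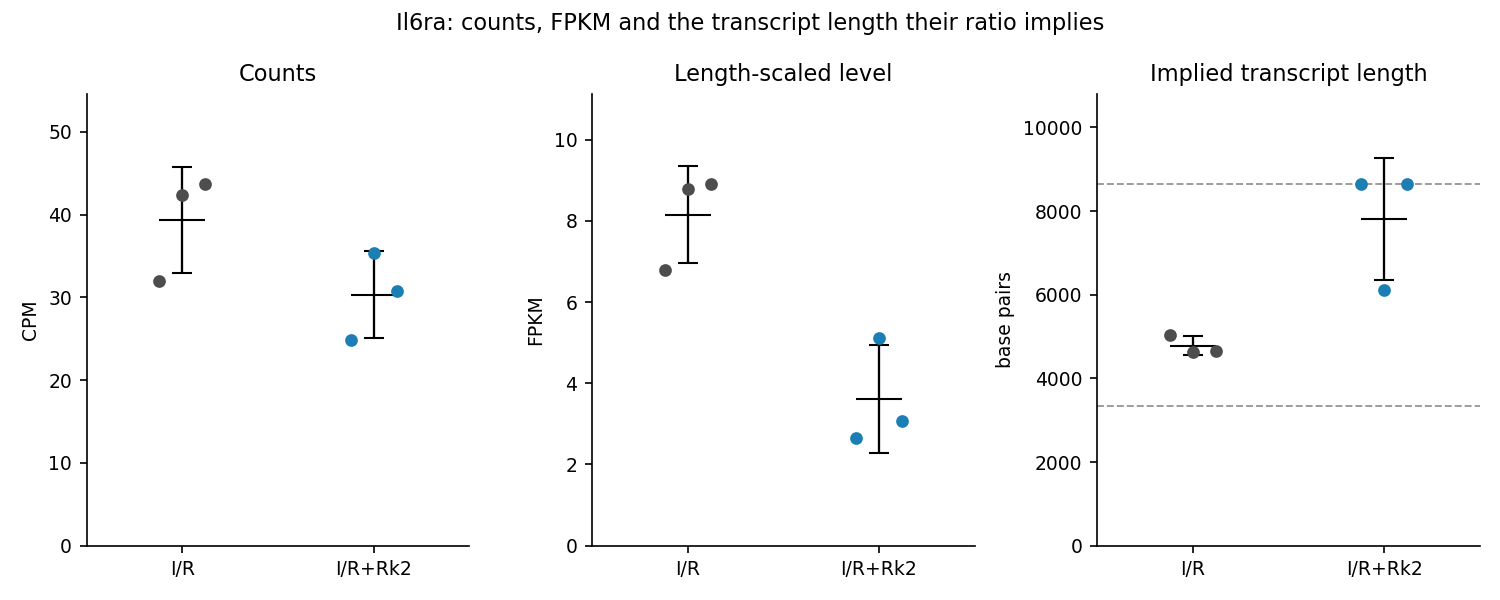
Il6ra in the 3 I/R (grey) and 3 I/R+Rk2 (blue) libraries as CPM, as FPKM and as the transcript length in base pairs that their ratio implies, with the group mean and SD; dashed lines mark the annotated transcripts of 3343 bp and 8639 bp. Counts overlap between the groups, whereas FPKM does not, and 2 of the treated libraries sit at the longer transcript.

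Among the other members, the implied length also separated the groups for Il6 (972, 846 and 1197 bp in I/R; 1478, 1228 and 2575 bp in I/R+Rk2), where the third treated liver had 11 counts. The Il6 shift, 0.75 on the log2 scale, was larger than that of Il6ra, and 0.818% of genes shifted further. Implied length separated them for Il11ra1 too, at 1520, 1427 and 1756 bp in I/R and 1125, 1235 and 1288 bp in I/R+Rk2. In every library this lay below the shortest annotated coding transcript of Il11ra1, of 1768 bp, and furthest below it in the treated livers. The Il11ra1 estimate therefore included shorter transcripts, and whether its coding message rose was not tested. For Osm the lengths were 2157 to 2242 bp and 2274 to 2278 bp, nearly level beside its coding transcript of 2272 bp. The lengths of Lif, Clcf1, Osmr, Lifr and Il6st overlapped between the groups. Those of Clcf1, from 2240 to 3583 bp, lay above its longest annotated coding transcript of 1847 bp in every library. Which transcripts the Clcf1 estimate holds was not tested.

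Per unit of length, Lifr was the most abundant of the 10 genes in I/R at 37.9 ± 4.75 FPKM (SD, n = 3), followed by Il6st at 17.6 ± 4.67 FPKM. Il11ra1, Osm and Il6ra came next at 9.27, 8.88 and 8.16 FPKM and overlapped their neighbours in that order, as did Osmr, Il6 and Lif at 6.15, 4.68 and 4.42 FPKM, with Clcf1 at 2.10 and Il11 at 0.689 FPKM. In I/R+Rk2, Lifr was still the highest at 37.6 FPKM, and Il11ra1 and Il6st overlapped at 17.3 and 17.2 FPKM. Below them Il6ra stood at 3.61 FPKM, and Osmr, Il6, Osm, Clcf1 and Lif lay between 1.24 and 0.465 FPKM, each overlapping the next.

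Summed over the 5 cytokines, the level was 24.1, 20.9 and 17.3 FPKM in I/R and 3.54, 2.32 and 1.32 FPKM in I/R+Rk2. Summed over the 5 receptors, it was 87.3, 74.2 and 75.8 FPKM in I/R and 85.8, 69.9 and 75.0 FPKM in I/R+Rk2. The cytokine sums were far apart between the groups, whereas the receptor sums overlapped. Osm made up 53.9%, 35.4% and 36.1% of the cytokine sum in I/R and 20.6%, 23.4% and 47.5% in I/R+Rk2, which overlapped.

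**Figure D4:**
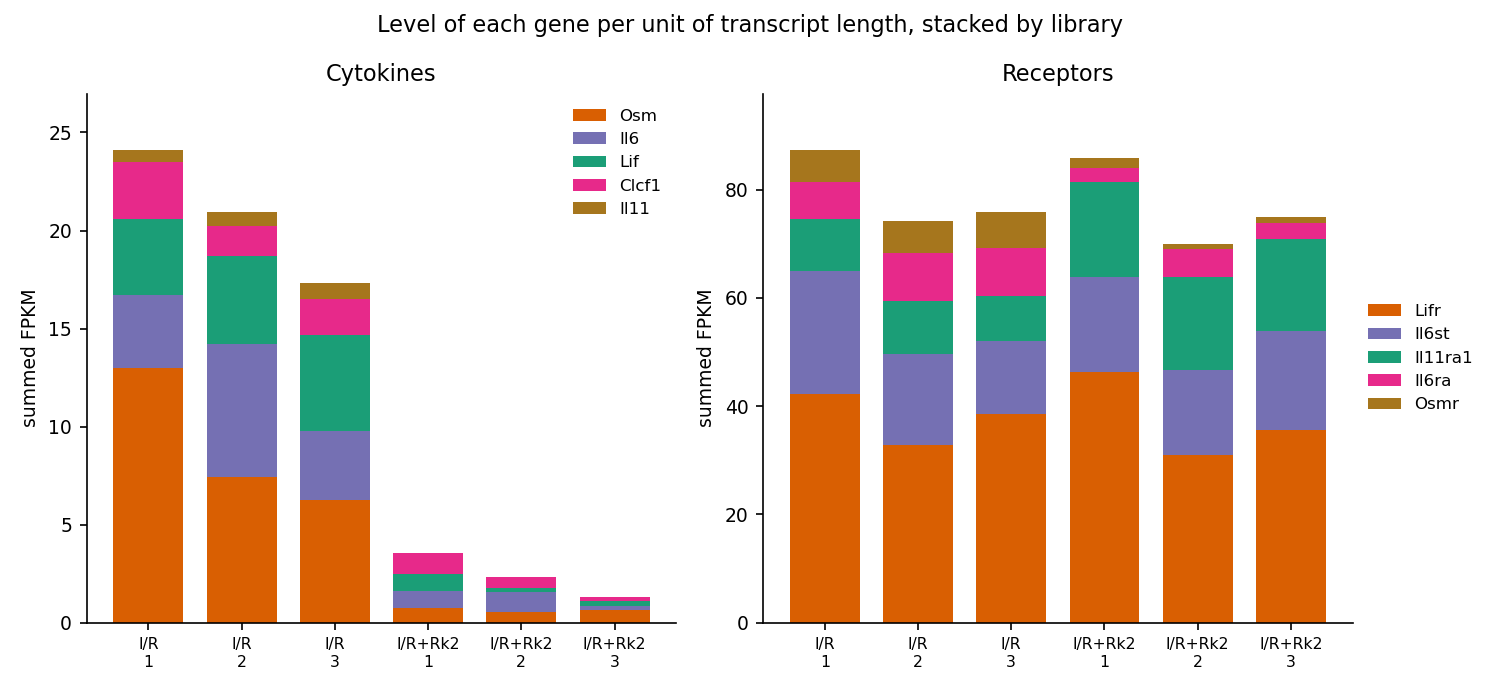
FPKM of the 5 cytokines (left) and 5 receptors (right) stacked in each of the 6 libraries, each axis starting at 0. The cytokine stacks reach 17.3 to 24.1 FPKM in I/R and 1.32 to 3.54 FPKM in I/R+Rk2, whereas the receptor stacks overlap.

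The genes that release the membrane-bound IL-6 receptor as a soluble form were lower in I/R+Rk2. Adam17, the main inducible sheddase, stood at 24.5 ± 2.72 CPM in I/R and 5.98 ± 0.50 CPM with Rk2 (SD, n = 3), and its log2 fold change was -2.03 (SE 0.13, edgeR adjusted p = 0.00024). Adam10, a related sheddase, stood at 32.4 ± 2.22 and 8.85 ± 1.59 CPM, and its log2 fold change was -1.87 (edgeR adjusted p = 0.000366). The iRhom genes Rhbdf1 and Rhbdf2, whose products bring ADAM17 to the cell surface, fell by 1.01 and 0.96 on the log2 scale. All 4 genes of the list were called lower without overlap, where 23.7% of all genes tested were called lower and 30.3% did not overlap on the lower side. Their median log2 fold change was -1.44.

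Of the 25 genes of the signal chain below gp130, 11 were lower, 3 were higher and 11 did not pass, beside 23.7% of all genes tested called lower and 20.3% called higher, and the median log2 fold change was -0.38. The transcription factor Stat3 stood at 187, 204 and 193 CPM in I/R and at 108, 110 and 127 CPM in I/R+Rk2 (log2 fold change -0.76, SE 0.09, edgeR adjusted p = 0.00123). The kinase Jak2 fell from 29.4 ± 4.61 to 14.1 ± 1.81 CPM, whereas its relative Tyk2 rose from 14.4 ± 0.633 to 20.3 ± 0.645 CPM. The phosphatase genes Ptpn1, Ptpn2 and Ptpn11 changed by -1.88, -1.54 and -0.55 on the log2 scale. The feedback inhibitors Socs3 and Cish, which are themselves STAT targets, changed by -0.49 (edgeR adjusted p = 0.00931) and -1.15 (edgeR adjusted p = 0.00393). The chain thus included activators and inhibitors among the genes that fell.

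Among genes known to respond to IL-6 type signals in hepatocytes, more were called lower than among all genes tested (23.7% lower and 20.3% higher). Of the 40 acute-phase and STAT3-responsive genes, 30 were lower, none was higher and 10 did not pass, with a median log2 fold change of -0.66, and 39 of the 40 estimates were negative. The 1 positive estimate was that of Hamp, at 0.18, which was not called (edgeR adjusted p = 0.427). Il6ra is itself on that list and Socs3 is also on the list of the signal chain. The genes named next were picked for their small p, and all fell further than the list median. Saa1 and Saa2, the acute-phase serum amyloid A genes, changed by -2.66 (SE 0.31) and -3.31 (SE 0.29) on the log2 scale. Lcn2, which encodes the siderophore-binding lipocalin 2 and is also a neutrophil granule gene, fell from 633 ± 167 to 48.8 ± 11.9 CPM. Serpina3n, a protease inhibitor, fell by 2.46 on the log2 scale, and Steap4, a metalloreductase, fell by 3.56. The metallothioneins Mt1 and Mt2 stood at 882 ± 117 and 994 ± 99.1 CPM in I/R and at 222 ± 13.9 and 249 ± 37.7 CPM in I/R+Rk2. Cd14, the endotoxin co-receptor, which macrophages also express, fell by 2.77 on the log2 scale. These falls stood beside a hepatocyte marker list in which 7 of 11 tested genes were higher and 1 was lower, at a median of 0.36.

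**Figure D5:**
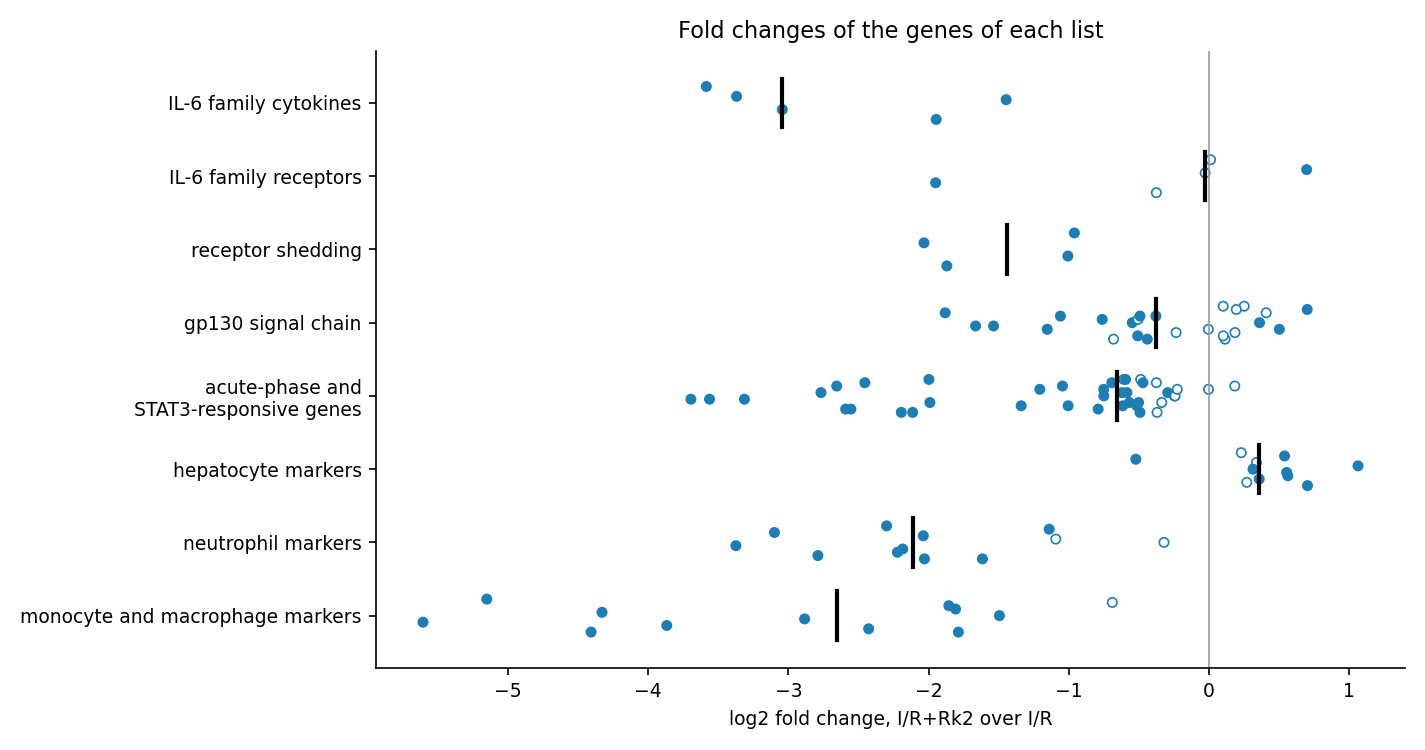
Log2 fold change (I/R+Rk2 over I/R) of each tested gene by list; filled points passed an adjusted p below 0.05 in edgeR, open points did not, black bars are list medians, and vertical offsets within a list are for display. Il11 is drawn at its bound; the cytokine, shedding, acute-phase and leukocyte lists lie mostly below 0, the hepatocyte markers mostly above, and the receptors on both sides.

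The other marker lists had median log2 fold changes of -0.43 for Kupffer cells, 0.35 for endothelial cells, -0.15 for stellate cells and fibroblasts and -0.93 for cholangiocytes, beside -2.11 for neutrophils and -2.66 for monocytes and macrophages. Kupffer cell markers summed to 206 to 250 CPM in I/R and 175 to 266 CPM in I/R+Rk2, with 2 of 8 called lower, near the 23.7% of all genes tested. Endothelial markers summed to 223 to 237 CPM and 219 to 262 CPM, with 3 of 10 lower, also near that share, and 5 higher, where 20.3% of all genes were, and stellate cell and fibroblast markers to 248 to 293 CPM and 192 to 273 CPM, with 4 of 12 lower. Cholangiocyte markers summed to 172 to 237 CPM and 85.7 to 120 CPM, with 4 of 7 lower. T and NK cell markers summed to at most 3.91 CPM and B cell markers to at most 1.26 CPM in any library, and of these lists 1 gene and none were tested. The part of these cell types in the changes of the cytokine and receptor genes was not tested.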

How the data were processed

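RNA from each liver (250 ng) was made into libraries with an MGI kit. The deposited counts are whole numbers per gene and the deposited FPKM values are scaled for transcript length and depth by the authors. The submitters' processing notes name FastQC 0.11.5, HISAT2 2.2.1, StringTie 1.3.3 and mm10, and the study's methods also name SAMtools and DESeq2; the annotation and the strand setting are not given in the sources used here. Count and FPKM of single-transcript genes returned the annotated length (GENCODE M21), so both tables hold one set of transcript estimates.

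Counts were filtered by filterByExpr, scaled by TMM and compared by the quasi-likelihood test of edgeR 4.0.16 (R 4.3.3) with Benjamini-Hochberg adjustment over 12411 genes. Tests used in other settings were DESeq2 1.42.0 and limma 3.58.1 on log2(FPKM + 1) or log2(FPKM + 0.1). The edgeR fit was also run on simulated counts in which few genes were changed, unlike in these data, and no result here rests on that run. Errors are SD over 3 libraries or SE of a fold change, each library is 1 liver sample, and p-values measure the spread between these livers. Replicate numbers showed no sign of pairing the livers: same-numbered libraries deviated together with r of -0.0313, 0.0477 and -0.0243 across 12411 genes. A pairing too weak to show in these values remains possible. No 2 libraries of the same group were duplicates, and pairs across the groups were not checked for this.

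The 10 members and all lists were chosen with earlier results of these data known. All members are named. Of each list, up to 8 genes with the smallest p among those with a mean of at least 100 counts in the higher group are named. Hamp is named besides, as the 1 positive estimate among the acute-phase and STAT3-responsive genes. The NF-kB consensus used was stricter than first planned, which matched too many windows. Implied lengths used single-transcript genes of at least 100 counts.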

Additional observations from a re-analysis of the deposited data

How the results depend on the processing

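Under 16 other settings (DESeq2, other scalings and filters, FPKM with limma, the replicate block and each library left out), Osm, Osmr, Lif, Il6 and Il11ra1 kept their direction and their call in all 16, and Il11 in the 14 that gave it a value; it had none where every library needed at least 10 counts or the mean FPKM had to reach 1. The number of members called was 6 to 8, beside 7, and the number of genes called was 3842 to 5575, beside 5454. Clcf1 lost its call when I/R replicate 1 (-1.32) or I/R replicate 3 (-1.42) was left out. Il6ra passed in 5 settings: library size alone (-0.529), the 3 FPKM fits (-1.02, -1.02 and -1.20) and the replicate block (-0.376, adjusted p = 0.0338). The median of all genes moved to -0.17 with library size alone and to -0.139 and -0.122 in 2 of the FPKM fits. On the log2(FPKM + 1) scale, which understates the change of low genes, Lif was -1.91, Osm -2.54 and Clcf1 -0.97.

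The replicate block, with numbers that showed no sign of pairing the livers, gave 4713 genes and 8 members called. Lifr was lower in 9 settings and higher in 7, and Il6st lower in 13 and higher in 3, with no call in any. From counts in place of FPKM, the log2 difference of the Osmr to Lifr ratio was -1.95 and that of the Il6ra to Il6st ratio -0.366. In FPKM these were -2.35 and -1.22. The FPKM ratio of Il6ra to Il6st overlapped between the groups (two-sided exact permutation p = 0.2), and the ratios from counts were not tested. The sum with the close copies of Il11ra1 was chosen after seeing the data. With 11 counts or fewer in some libraries, Il6 and Il11 are limited by depth in I/R+Rk2.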

Other observations

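Of a list of other IL-6 and IL-12 family genes and related receptor chains, 7 were tested, of which 2 were lower, 1 was higher and 4 did not pass, with a median log2 fold change of -0.44. These counts are near the shares of all genes tested, 23.7% lower and 20.3% higher. The called genes Ctf1 and Cntf are named after their values were seen. Ctf1, which encodes cardiotrophin-1, a ligand of the Lifr and Il6st pair, was the family's called ligand gene that rose: it had 25, 48 and 47 counts in I/R and 61, 127 and 66 in I/R+Rk2, or 1.3, 1.87 and 1.87 CPM against 2.56, 3.76 and 4.05 CPM (log2 fold change 1.02, SE 0.26, edgeR adjusted p = 0.018). The groups did not overlap, as in 27.1% of genes in that direction. Cntf, which encodes ciliary neurotrophic factor, had 7, 19 and 14 counts in I/R and was listed at 0 in all 3 treated livers. Against a floor of 3 counts per library it was at least 4.17-fold lower (edgeR adjusted p = 0.00478). Cntf had passed the count filter through its I/R counts alone, so this call is not independent of its level in I/R. A listed 0 is the absence of an estimated transcript, and the floor covers counting error only. Crlf2, a chain of the receptor for thymic stromal lymphopoietin and not itself a family member, was barely past the threshold, with a mean of 7.0 ± 0.335 CPM in untreated and 5.19 ± 0.707 CPM in treated livers (SD, n = 3, edgeR log2 fold change -0.44, adjusted p = 0.0494). Ctf2, Il27, Il31ra, Il12rb2 and Il23a had too few counts to be tested.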
